A study of Mus musculus with 48 samples.

Results

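The genes of cholesterol synthesis and uptake were followed through the livers of mice carrying an activated β-catenin, a MYC transgene or both. The set was a list of 28 mouse gene symbols covering the sterol-sensing regulators, the enzymes of the pathway from acetyl-CoA to cholesterol, and proteins of sterol transport, uptake and esterification. All 28 were found by symbol among the 20622 genes with a cytoplasmic RNA row, and all 28 had a transcript among the 16269 on which ribosome-protected fragments (RPFs) were counted. RPFs are the pieces of mRNA covered by a translating ribosome, and cytoplasmic RNA was sequenced from the same lysates. For each gene 3 quantities were available: the RPF level, the RNA level, and the translation efficiency (TE), which is the RPF level over the RNA level.

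Cholesterol is built from acetyl-CoA. The mevalonate arm of the pathway gives isoprenoid units, and the squalene and sterol arm joins and folds them into lanosterol and trims that to cholesterol. The transcription factor SREBP2, encoded by Srebf2, drives most of these genes. It is made as a membrane protein of the endoplasmic reticulum, where SCAP escorts it towards the Golgi when sterols are scarce and the INSIG proteins hold SCAP back when sterols are plentiful. In the liver the same programme also sets how much lipoprotein cholesterol is taken up, and MYLIP (also named IDOL) is a ubiquitin ligase that opposes uptake.

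Livers came from male mice aged 2 to 4 months, all of which received AAV8.TBG.Cre, a virus that expresses Cre from the hepatocyte promoter TBG, also when they carried no allele to recombine. The groups were Wild-type (WT), Ctnnb1ex3/+ (B), R26-LSL-MYC (M) and Ctnnb1ex3/+; R26-LSL-MYC (BM). Each was taken 4 or 10 days after the virus. Each genotype and day had 3 mice, so that 24 mice gave 48 libraries. The ex3 allele encodes a β-catenin that lacks the segment through which it is marked for degradation, and the R26-LSL-MYC allele expresses MYC after Cre removes a stop cassette. Cre acts in hepatocytes only, while the lysates were of whole liver, so fewer cells of a type and less RNA per cell cannot be told apart in any result given here.

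RPF libraries held 9742197 to 14380713 counts and RNA libraries 3254141 to 6540116. Levels are given as CPM, counts relative to the library total, after TMM scaling over the 24 libraries of a type. Axin2, a target of β-catenin, checked the ex3 allele: it was at 2.85 to 3.52 RPF CPM in WT at day 4, 18.2 to 27.1 in B and 23.6 to 28.4 in BM. At day 10 it was at 1.84 to 2.36 in WT and 18.5 to 26.2 in B, and 26.7, 10.5 and 6.20 in the 3 BM mice. No check of the MYC transgene was made. The summed RPF level of 6 hepatocyte markers, among them Alb and Apoa1, was 69331 to 79038 in WT at day 4 and 68838 to 88056 at day 10, and 33962 to 40507 and 32092 to 44969 in BM. BM mouse 1 of day 10 stood apart from its group over the whole RPF library: the chi-square per degree of freedom over genes was 149.6 and 176 against mice 2 and 3 and 10.1 between those. RPF changes of this group from WT are given also without that mouse where a call was gained or lost, the direction turned or the value moved by over 1.5 times. The mouse was singled out because it stood apart, so a smaller SE without it is no independent result. Those fits rest on 2 BM mice, and 66.3% of all genes were then called for RPFs against WT, in place of 46.8%. M mouse 3 of day 10 stood apart less widely, with 42.8 and 47.4 against mice 1 and 2 and 5.55 between those. The labels give no batches of library preparation or sequencing.

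In WT liver at day 4 enzymes filled the top of the list, and Srebf2, Scap and Mylip stood near its lower end. Per kilobase of counted coding sequence, RPF levels were highest for Fdps, farnesyl diphosphate synthase, with 532 ± 91.2 CPM per kb (mean ± SD, n = 3), followed by the late enzyme Sc5d with 515 ± 27.6 and by Hmgcs1, the synthase that makes HMG-CoA, with 456 ± 59.4. Idi1, Acat2, Ebp and Msmo1 came next, between 312 and 405. The spread of the first 3 overlapped. Srebf2 was at 17.3 ± 1.21, Scap at 12.2 ± 0.686 and Mylip at 11.1 ± 0.952. Ggps1, which makes the geranylgeranyl diphosphate used for protein prenylation, was at 3.69 ± 0.339. Npc1l1, the sterol importer of the intestine, had 6 RPF counts in 2 libraries and 2 RNA counts in 2 libraries, was filtered from every test and is not described further. The other 27 members were in every library of both types and were tested in every comparison. At low depth stood Ggps1, with 822 RPF counts in all 24 libraries, and Mylip, with 2830. Acat2, the cytosolic thiolase of the first step, has a close paralogue in Acat3, and its counts depend on how reads were shared between them.

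Promoter windows, from 250 bases before to 50 after the gene start, were taken from RefSeq (GRCm38.p6) for 23 of the 28 members. SREBP2 binds sterol regulatory elements and works beside the CCAAT-binding factor NF-Y, so these letters were searched on both strands. TCACNCCA, a core of the sterol regulatory element, was in the windows of 3 of the 23 members and of 4.97% of all 27025 genes. Its 1-base longer form TCACNCCAC was in 1 member, Hmgcs1, and in 1.44% of all genes. CCAAT was in 21 of 23 members and 41.06% of all genes, and the E-box CACGTG, which MYC can bind, in 5 (Scap, Insig1, Hsd17b7, Sc5d and Dhcr7) and 8.09%. The longer form contains the core, and the last letters of the core can be shared with a CCAAT or an E-box. Where a gene had several windows, a match in any was counted. The 3 windows with the core are shown because they belong to the factor itself, to an early enzyme and to a late one, with TCACNCCA and CCAAT of either strand in capitals. In GRCm38.p6 they lie at chr15:82147019-82147318 (+ strand), chr13:119690101-119690400 (+ strand) and chr8:64733529-64733828 (- strand).
Srebf2: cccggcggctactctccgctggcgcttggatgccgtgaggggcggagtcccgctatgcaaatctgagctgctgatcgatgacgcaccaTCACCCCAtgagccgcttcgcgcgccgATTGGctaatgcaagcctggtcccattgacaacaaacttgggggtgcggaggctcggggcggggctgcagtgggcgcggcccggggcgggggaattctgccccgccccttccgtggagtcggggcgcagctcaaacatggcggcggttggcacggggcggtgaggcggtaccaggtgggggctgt
Hmgcs1: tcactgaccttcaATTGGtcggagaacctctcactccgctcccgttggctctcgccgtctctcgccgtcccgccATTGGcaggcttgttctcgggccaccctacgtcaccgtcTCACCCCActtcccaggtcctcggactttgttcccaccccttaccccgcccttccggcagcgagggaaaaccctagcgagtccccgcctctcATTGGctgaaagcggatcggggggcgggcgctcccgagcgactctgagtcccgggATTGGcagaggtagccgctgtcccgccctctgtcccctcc
Msmo1: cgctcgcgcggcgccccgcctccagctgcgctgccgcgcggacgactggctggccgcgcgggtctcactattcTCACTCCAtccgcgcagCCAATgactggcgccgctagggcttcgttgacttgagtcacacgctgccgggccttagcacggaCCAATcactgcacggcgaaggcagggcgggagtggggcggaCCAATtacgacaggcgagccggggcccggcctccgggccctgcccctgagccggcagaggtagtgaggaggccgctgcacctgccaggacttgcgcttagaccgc
A match is a description of letters and not a bound site.

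In livers with the activated β-catenin alone, most synthesis enzymes rose. At day 4, RPFs of 17 of the 27 tested members rose in B against WT and 2 fell, where 12.5% of all genes tested were called (edgeR, adjusted p under 0.1, either direction). The median log2 change was 0.47 over the members and -0.01 over all genes tested. Of the 20 enzymes of synthesis, 16 rose and 0 fell. At day 10, 14 members rose and 5 fell beside 25.2% of all genes, with a median of 0.36 beside 0.01, and 13 enzymes rose with 0 falling. The 5 that fell at day 10 were Scap, Insig2, Stard4, Mylip and Soat2, none of which makes an intermediate of the pathway. With all 24 mice in one fit, 9 rose and 0 fell at day 4, so that the falls of Insig2 and Mylip were not called. Without WT mouse 1 or 3 or B mouse 1 or 2 of that day, 1 member was called lower in place of 2.

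In livers with the MYC transgene alone, most of them fell. At day 4, 15 members fell in M against WT and 2, Mvk and Soat2, rose, beside 33.3% of all genes called. The median log2 change was -0.37 over the members and 0.01 over all genes. At day 10, 20 fell and 0 rose beside 19.4%, with a median of -0.59 beside -0.001. Among the 20 enzymes 11 fell at day 4 and 15 at day 10. Without M mouse 3 of day 10 the count at that day was again 20 lower and 0 higher. Without WT mouse 3 of day 10, 13 members fell and 0 rose at that day.

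**Figure D1:**
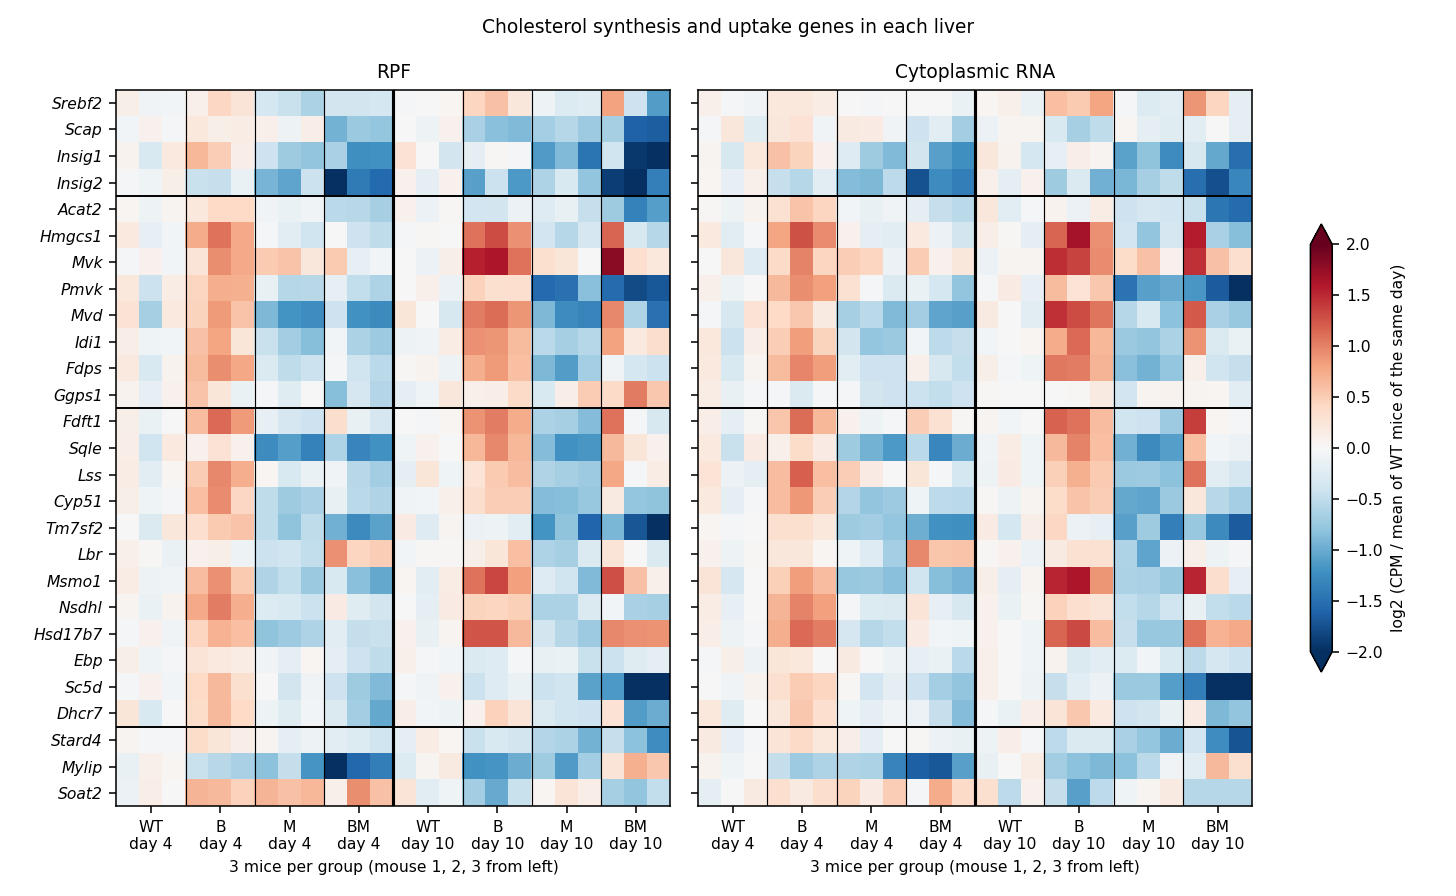
Levels of 27 members in each of the 24 mice as log2 of CPM over the mean of the WT mice of the same day, for RPFs (left) and cytoplasmic RNA (right), with rows grouped into regulators, mevalonate arm, sterol arm and transport genes and colours saturating at 2 either side of 0. Most enzyme rows are red in B and blue in M at both days, and the 3 columns of BM at day 10 differ among themselves, with mouse 1 red and mice 2 and 3 pale or blue for many enzymes.

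With both alleles, the members fell at day 4 and split at day 10. At day 4, 20 of 27 fell in BM against WT and 2, Lbr and Soat2, rose, beside 50.9% of all genes called and with a median log2 change of -0.40 beside -0.0007. So many genes were called there that the count of members has to be read beside the median. At day 10, 5 rose and 9 fell beside 46.8%, with a median of -0.29 beside 0.03. Without BM mouse 1, 4 rose and 16 fell beside 66.3%, and the median was -0.65. With any 1 of the WT mice of day 10 left out instead, 1 rose and 8 fell, and the rise left was that of Hsd17b7, while those of Mvk, Ggps1, Msmo1 and Mylip lost their calls.

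The enzymes of single mice show the split. For each mouse, the median over the 20 enzymes of log2 of the RPF level over the WT mean of its day was taken as a description. It was 0.44, 0.76 and 0.55 in the B mice of day 4 and 0.46, 0.51 and 0.61 in those of day 10. The M mice gave -0.22, -0.38 and -0.42 at day 4 and -0.57, -0.64 and -0.71 at day 10. The BM mice gave -0.18, -0.52 and -0.61 at day 4, all below 0, and 0.33, -0.28 and -0.38 at day 10, where mouse 1 lay above 0 and the others below. RNA of the BM mice gave -0.10, -0.40 and -0.51 at day 4 and 0.19, -0.37 and -0.45 at day 10, in the same order. WT mice lay between -0.13 and 0.12 for RPFs.

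**Figure D2:**
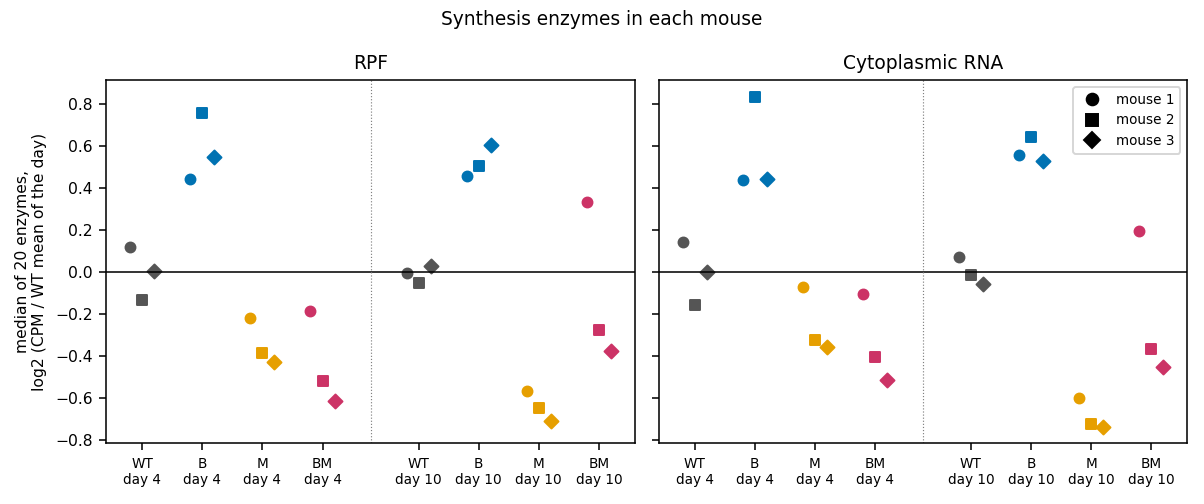
Median over the 20 synthesis enzymes of log2 (CPM over the WT mean of the day) in each mouse, for RPFs and RNA, with the shape of the point giving the mouse number. The number is not used here to pair mice across groups. The 6 B mice lie above 0 and the 6 M mice below it, and BM mouse 1 of day 10 lies at 0.33 for RPFs while mice 2 and 3 lie at -0.28 and -0.38.

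**Figure D3:**
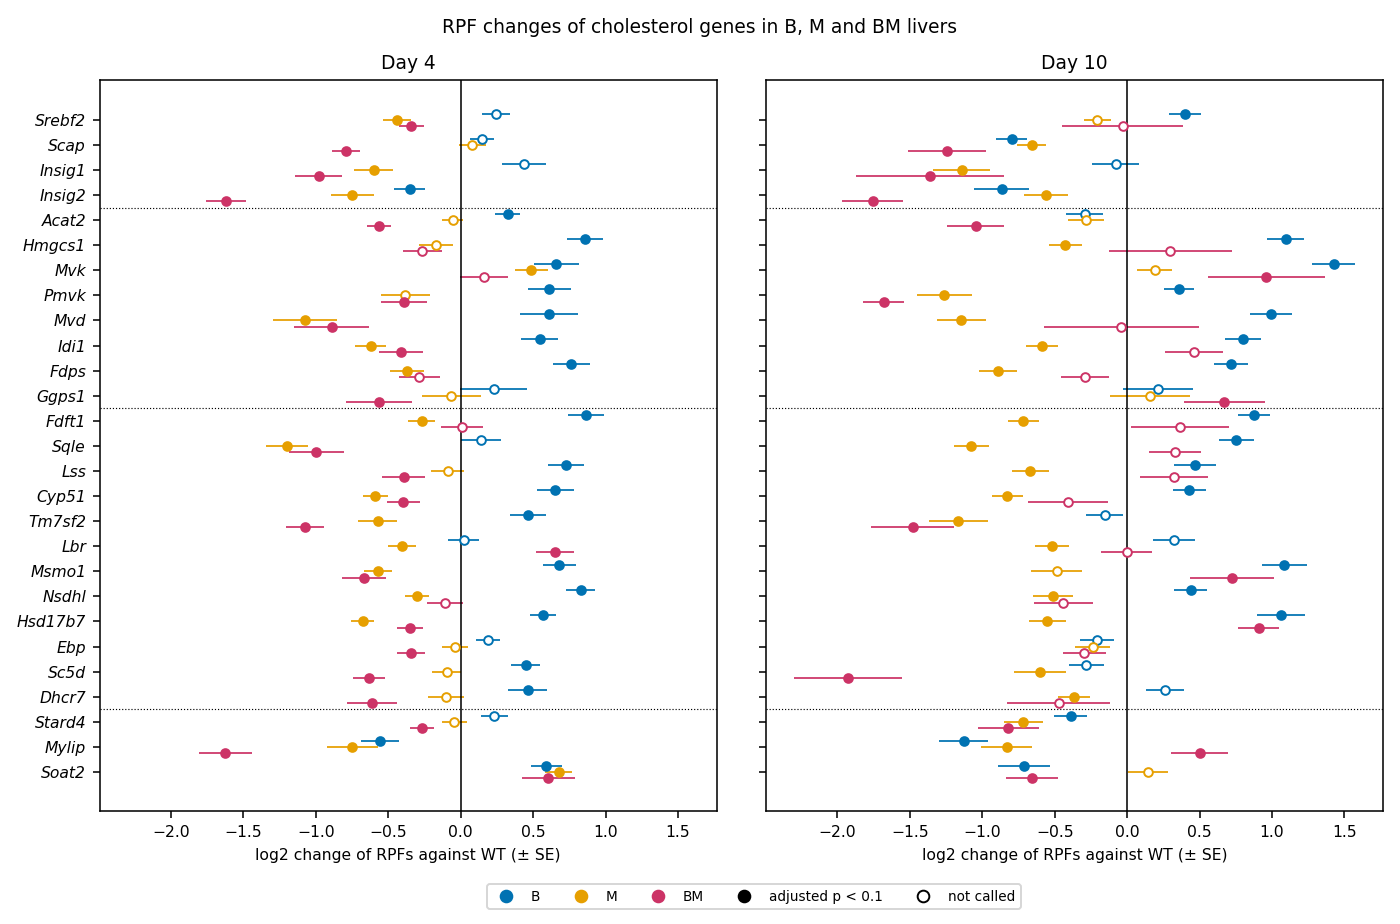
Fitted log2 change of RPFs against WT (± SE, 3 mice a group) for 27 members in B, M and BM at day 4 (left) and day 10 (right), with filled points for adjusted p under 0.1. At day 4 most B points lie right of 0 and most M and BM points left of it, and at day 10 the BM points spread from -1.93 (Sc5d) to 0.96 (Mvk).

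Among the regulators, Srebf2 (chr15:82031382-82093201, GRCm39), which encodes SREBP2, had RPF levels of 61.7, 54.6 and 54.9 CPM in WT at day 4, 61.0, 75.9 and 68.1 in B, 44.7, 42.1 and 36.8 in M and 44.1, 44.4 and 44.7 in BM. M and BM lay below every WT mouse, with log2 changes of -0.44 ± 0.10 (SE, adjusted p = 0.0079) and -0.34 ± 0.08 (0.007), and the B group overlapped WT. At day 10 WT gave 56.6, 58.5 and 59.6, B 78.2, 87.0 and 68.0, M 54.1, 48.3 and 49.1 and BM 102, 43.9 and 26.9. B rose by 0.40 ± 0.11 (0.036), and M, with every mouse below WT, gave -0.21 ± 0.09, not called. In BM at day 10, mouse 1 lay above all WT mice and mice 2 and 3 below all of them. The mean change was -0.03 ± 0.42 with all mice, not called. Without mouse 1 it was -0.73 ± 0.18 and called (adjusted p = 0.0051), on 2 BM mice and beside 66.3% of all genes.

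Insig2 (chr1:121181760-121260400), a hepatic anchor that retains SCAP and SREBP2, fell in all 6 comparisons, though its call in B at day 4 was lost in one fit of all 24 mice. Its RPF level was 131, 127 and 146 CPM in WT at day 4, 98.8, 97.5 and 123 in B, 70.6, 64.6 and 100.5 in M and 33.0, 50.3 and 45.8 in BM. No mouse of any of the 3 groups reached the lowest WT mouse. At day 10 the values were 116, 95.1 and 115 in WT, 51.3, 80.9 and 48.8 in B, 70.9, 88.0 and 62.7 in M and 29.6, 25.9 and 42.0 in BM, again without overlap. The log2 changes at day 10 were -0.87 ± 0.19, -0.56 ± 0.15 and -1.76 ± 0.21 (adjusted p = 0.014, 0.048 and 0.0011), and mouse 1 of BM was as low as its group. BM was below both single genotypes at both days: against B by -1.27 at day 4 and -0.88 at day 10, against M by -0.88 and -1.21, all called.

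Insig1 (chr5:28276315-28283668), the other anchor and itself a target of SREBP2, was at 151, 115 and 163 RPF CPM in WT at day 4, 228, 202 and 157 in B, 107, 87.1 and 83.0 in M and 91.5, 60.9 and 61.8 in BM. M and BM lay below WT (-0.60 ± 0.14 and -0.98 ± 0.16, adjusted p = 0.0095 and 0.00056), and B overlapped WT. On day 10 the WT values were 264, 217 and 169, B 192, 220.0 and 209.8, M 98.3, 118 and 78.3 and BM 164, 57.1 and 34.9. In BM, mouse 1 was close to the lowest WT mouse, and the change was -1.36 ± 0.51 with all mice and -2.24 ± 0.24 without it, called in both. Both Insig genes thus fell in M and BM at both days, while in B Insig2 fell and Insig1 gave 0.44 and -0.08, neither called.

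Scap (chr9:110158229-110214024), the escort of SREBP2, moved in BM at day 4 and in all 3 genotypes at day 10. At day 4 it was at 43.9, 48.7 and 44.8 RPF CPM in WT, 53.0, 49.8 and 50.5 in B, 49.2, 42.5 and 50.1 in M and 23.7, 27.5 and 26.7 in BM. Only in BM did every mouse lie below all WT mice (-0.79 ± 0.10, adjusted p = 6.6e-05). At day 10 all mice of the 3 genotypes lay below WT: 58.0, 54.0 and 61.3 in WT, 36.9, 32.5 and 31.4 in B, 35.9, 39.0 and 35.1 in M and 36.4, 18.9 and 18.3 in BM. The changes were -0.80 ± 0.11, -0.66 ± 0.10 and -1.25 ± 0.27 (adjusted p = 0.0017, 0.0069 and 0.01), and BM gave -1.64 ± 0.13 without mouse 1. Its RNA moved less, as described with TE below.

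In the mevalonate arm of 8 enzymes, 7 rose in B at day 4 and 6 at day 10, and none fell. In M, 3 fell and 1 rose at day 4, and 5 fell at day 10. In BM, 5 fell at day 4, and at day 10 2, Acat2 and Pmvk, fell and 2, Mvk and Ggps1, rose. Of all genes, 12.5%, 33.3% and 50.9% were called in B, M and BM at day 4 and 25.2%, 19.4% and 46.8% at day 10, so that the counts in BM stood close to the share of all genes. Without BM mouse 1 the arm was mostly lower at day 10: 5 fell, Acat2, Hmgcs1, Pmvk, Mvd and Fdps, and 1, Ggps1, rose, beside 66.3% of all genes. Hmgcs1 (chr13:120151915-120170470), the enzyme of this arm with the most RPFs, went from 671 ± 87.3 RPF CPM in WT to 1229 ± 175 in B at day 4 (SD, n = 3) and from 1033 ± 21.2 to 2230.2 ± 306 at day 10, a 1.81-fold and a 2.13-fold rise (adjusted p = 0.0016 and 0.00099). The 3 BM mice of day 10 had 2326, 831 and 695, mouse 1 within the range of B and the others below every WT mouse. The log2 change there was 0.30 ± 0.42 with all mice, not called, and turned to -0.45 ± 0.14 without mouse 1, called.

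Mvd (chr8:123160336-123170324), which forms isopentenyl diphosphate, showed the same contrast at lower levels. Its RPF level was 34.9, 18.0 and 32.7 CPM in WT at day 4, 39.0, 51.5 and 42.5 in B, 15.4, 12.5 and 12.1 in M and 21.4, 12.4 and 11.8 in BM. WT mouse 2 was low among its group, so that the BM range overlapped WT. The log2 changes were 0.61 ± 0.20, -1.08 ± 0.22 and -0.89 ± 0.26 (adjusted p = 0.097, 0.0058 and 0.016). The WT mice of day 10 had 58.7, 49.9 and 39.7, B 101, 107 and 91.4, M 26.6, 20.7 and 19.8 and BM 95.9, 32.1 and 17.5. B and M lay on either side of WT without overlap (1.00 ± 0.15 and -1.15 ± 0.17), and the BM mice reached from the level of M to that of B. BM changed by -0.04 ± 0.54 with all mice, not called, and by -1.01 ± 0.24 without mouse 1, called.

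Pmvk (chr3:89361758-89376323), the kinase before Mvd, parted from its neighbours in BM at day 10. Its RPF level was 97.8, 62.8 and 93.8 CPM in WT at day 4, 115, 139.8 and 139 in B, 76.8, 56.9 and 57.5 in M and 75.4, 60.2 and 55.4 in BM. B rose (0.61 ± 0.15) and BM fell (-0.39 ± 0.16), and M gave -0.38 ± 0.17, not called. By day 10 WT stood at 109.7, 116 and 101, B 151, 136 and 137, M 36.9, 38.7 and 60.9 and BM 37.5, 31.4 and 33.8. All M and BM mice, mouse 1 of BM included, lay below WT, with changes of -1.26 ± 0.19 and -1.68 ± 0.14 (adjusted p = 0.0066 and 0.00027), and B lay above (0.36 ± 0.10).

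Idi1 (chr13:8935537-8942487), the isomerase that follows, was at 338, 289.5 and 295 RPF CPM in WT at day 4, 463, 533 and 365 in B, 226, 190.4 and 170.0 in M and 298, 198 and 187 in BM. M lay below WT in every mouse and BM overlapped it through mouse 1 (-0.62 ± 0.11 and -0.41 ± 0.15, both called). At day 10 WT had 349, 358 and 415, B 706, 689.5 and 579.6, M 258, 236 and 252 and BM 653, 427 and 479. Here all BM mice lay above all WT mice, with a change of 0.46 ± 0.20 whose adjusted p of 0.104 missed the threshold. Without mouse 1 it was 0.27 ± 0.13, not called either.

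Of the other enzymes of this arm, Mvk, the first kinase, rose in B at both days (0.66 and 1.43), in M at day 4 (0.49) and in BM at day 10 (0.96 ± 0.40, adjusted p = 0.097). The last rise was 0.26 and not called without BM mouse 1, whose RPF level was 85.6 CPM against 30.9 and 28.5 in the others. Fdps rose in B (0.76 and 0.71) and fell in M (-0.37 and -0.89), and in BM at day 10 it gave -0.29, not called, or -0.40 and called without mouse 1. Acat2 rose in B at day 4 (0.32) and fell in BM at both days (-0.56 and -1.04). Ggps1, at 2.67 to 3.16 RPF CPM in WT and 1.65 to 2.36 in BM at day 4, fell there (-0.56 ± 0.23) and rose at day 10 (0.67 ± 0.28, adjusted p = 0.096).

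In the squalene and sterol arm of 12 enzymes, 9 rose in B at day 4 and 7 at day 10, and none fell. In M, 8 fell at day 4 and 10 at day 10, and none rose. In BM at day 4, 9 fell and 1, Lbr, rose. In BM at day 10, 2 fell, Tm7sf2 and Sc5d, and 2 rose, Msmo1 and Hsd17b7. That is 4 of 12, a lower share than the 46.8% of all genes called there, while the 10 of 12 of day 4 stood beside 50.9%. The count of day 10 rested on BM mouse 1: without it 5 fell, Cyp51, Tm7sf2, Nsdhl, Sc5d and Dhcr7, and 2 rose, Msmo1 and Hsd17b7, beside 66.3%. The shares of all genes were 12.5% and 25.2% for B and 33.3% and 19.4% for M.

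Sqle, squalene epoxidase, the monooxygenase that commits squalene to sterols, fell furthest of the members in M at day 4. It was at 147, 101 and 153 RPF CPM in WT at day 4, 56.0, 62.4 and 52.6 in M and 87.4, 53.3 and 57.6 in BM, without overlap (-1.20 ± 0.15 and -1.0 ± 0.19, adjusted p = 0.00038 and 0.0014), and at 142, 163 and 142 in B, which overlapped WT. On day 10 the WT values were 133, 150.4 and 143, B 224, 278 and 225, M 77.6, 61.2 and 63.5 and BM 223, 168 and 150.1. B was above WT (0.75 ± 0.12), M below (-1.08 ± 0.12), and BM no longer below (0.33 ± 0.18, or 0.15 ± 0.12 without mouse 1, neither called). Fdft1, squalene synthase, changed in B by 0.87 at day 4 and 0.88 at day 10 and in M by -0.27 and -0.72, all called, and BM gave 0.01 and 0.37, neither called. The second value rested on mouse 1 of BM and was -0.18 without it, not called.

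Cyp51 (chr5:4123416-4154751), which removes the first methyl group of lanosterol, was at 328, 286 and 294 RPF CPM in WT at day 4, 457, 583 and 404 in B, 213, 184 and 193 in M and 273, 208 and 199 in BM. B lay above WT and M and BM below it, without overlap (0.65 ± 0.13, -0.59 ± 0.08 and -0.40 ± 0.11). The WT mice of day 10 had 359, 363 and 404, B 478, 527 and 529, M 207, 208 and 221 and BM 425, 219 and 214. BM mouse 1 was the highest of its group, above every WT mouse, and mice 2 and 3 were at the level of M. The change in BM was -0.41 ± 0.27 with all mice and -0.80 ± 0.13 without mouse 1, the second of which was called.

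Msmo1 (chr8:65170603-65186830), the sterol-C4-methyl oxidase of the next steps, was at 274, 229.9 and 235 RPF CPM in WT at day 4, 379, 463 and 354 in B, 163, 176 and 148 in M and 199, 138 and 121 in BM. The 3 groups lay outside the WT range, B above (0.68 ± 0.11) and M and BM below (-0.57 ± 0.09 and -0.67 ± 0.15). By day 10 WT stood at 270.1, 227 and 294, B 561, 668 and 467, M 221, 200.5 and 143 and BM 643, 395 and 284. BM had turned to a rise of 0.73 ± 0.29 (adjusted p = 0.084), or 0.36 ± 0.17 without mouse 1, still called, though mouse 3 overlapped WT.

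Hsd17b7 (chr1:169777093-169796813), the reductase that acts at the same C4 position, was called in all 6 comparisons. It was at 75.8, 81.7 and 73.4 RPF CPM in WT at day 4, 104, 125 and 117 in B, 44.1, 46.6 and 50.2 in M and 66.4, 55.4 and 56.3 in BM. At day 10 WT had 86.8, 73.5 and 84.5, B 196, 196 and 127, M 63.2, 55.0 and 49.1 and BM 159, 153 and 152. Unlike most enzymes it was even across the BM mice of day 10, all of them above every WT mouse (0.91 ± 0.14, adjusted p = 0.0028). At day 4 the same genotype lay below WT (-0.35 ± 0.09), and the BM effects of the days differed by 1.27 ± 0.15 (adjusted p = 0.00019).

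Tm7sf2 and Lbr both encode sterol-C14 reductases, and Lbr is also a receptor for lamin B in the nuclear envelope. They parted in BM at day 4. Tm7sf2 (chr19:6112851-6118403) was at 69.4, 56.2 and 80.8 RPF CPM in WT, 86.6, 99.3 and 102 in B, 48.3, 39.3 and 48.3 in M and 35.4, 28.4 and 32.7 in BM, with BM below every WT and M mouse (-1.07 ± 0.13, adjusted p = 6.8e-05). At day 10 it was at 88.1, 65.3 and 81.4 in WT, 72.3, 72.9 and 67.8 in B, 34.2, 44.6 and 25.9 in M and 41.7, 23.8 and 19.3 in BM, again lower in M and BM (-1.17 ± 0.20 and -1.48 ± 0.29). Lbr was at 29.3, 27.6 and 24.9 in WT at day 4, 20.2, 20.7 and 19.4 in M and 51.6, 36.6 and 38.2 in BM, a fall of M (-0.41 ± 0.10) and a rise of BM (0.65 ± 0.13, adjusted p = 0.0022), and the difference between BM and M was 1.05 ± 0.13 (0.00038). In BM at day 10 Lbr was not called against WT with all mice or without mouse 1, where it gave -0.15.

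Sc5d, the desaturase of the last steps, fell furthest of all members in BM at day 10. It was at 573, 557 and 624 RPF CPM in WT, 436, 488 and 533 in B, 432, 446 and 279 in M and 263, 106 and 98.1 in BM, so that every BM mouse lay below every other mouse of that day (-1.93 ± 0.37, 0.263 of WT, adjusted p = 0.0067). Without mouse 1 the change was -2.53 ± 0.14. Of the other late enzymes, Nsdhl rose in B (0.83 and 0.44) and fell in M (-0.30 and -0.51). Lss, which closes the sterol rings, rose in B (0.73 and 0.47) and fell in BM at day 4 (-0.39) and M at day 10 (-0.67), and in BM at day 10 it gave 0.32, or 0.04 without mouse 1, neither called. Dhcr7, the last reductase, rose in B at day 4 (0.46) and fell in BM at day 4 (-0.61) and M at day 10 (-0.37). In BM at day 10 Nsdhl gave -0.44 and Dhcr7 -0.47, neither called, and without mouse 1 both were called, at -0.66 and -1.06 (adjusted p = 0.0012 and 3.9e-05). Ebp was called once, in BM at day 4 (-0.34).

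**Figure D4:**
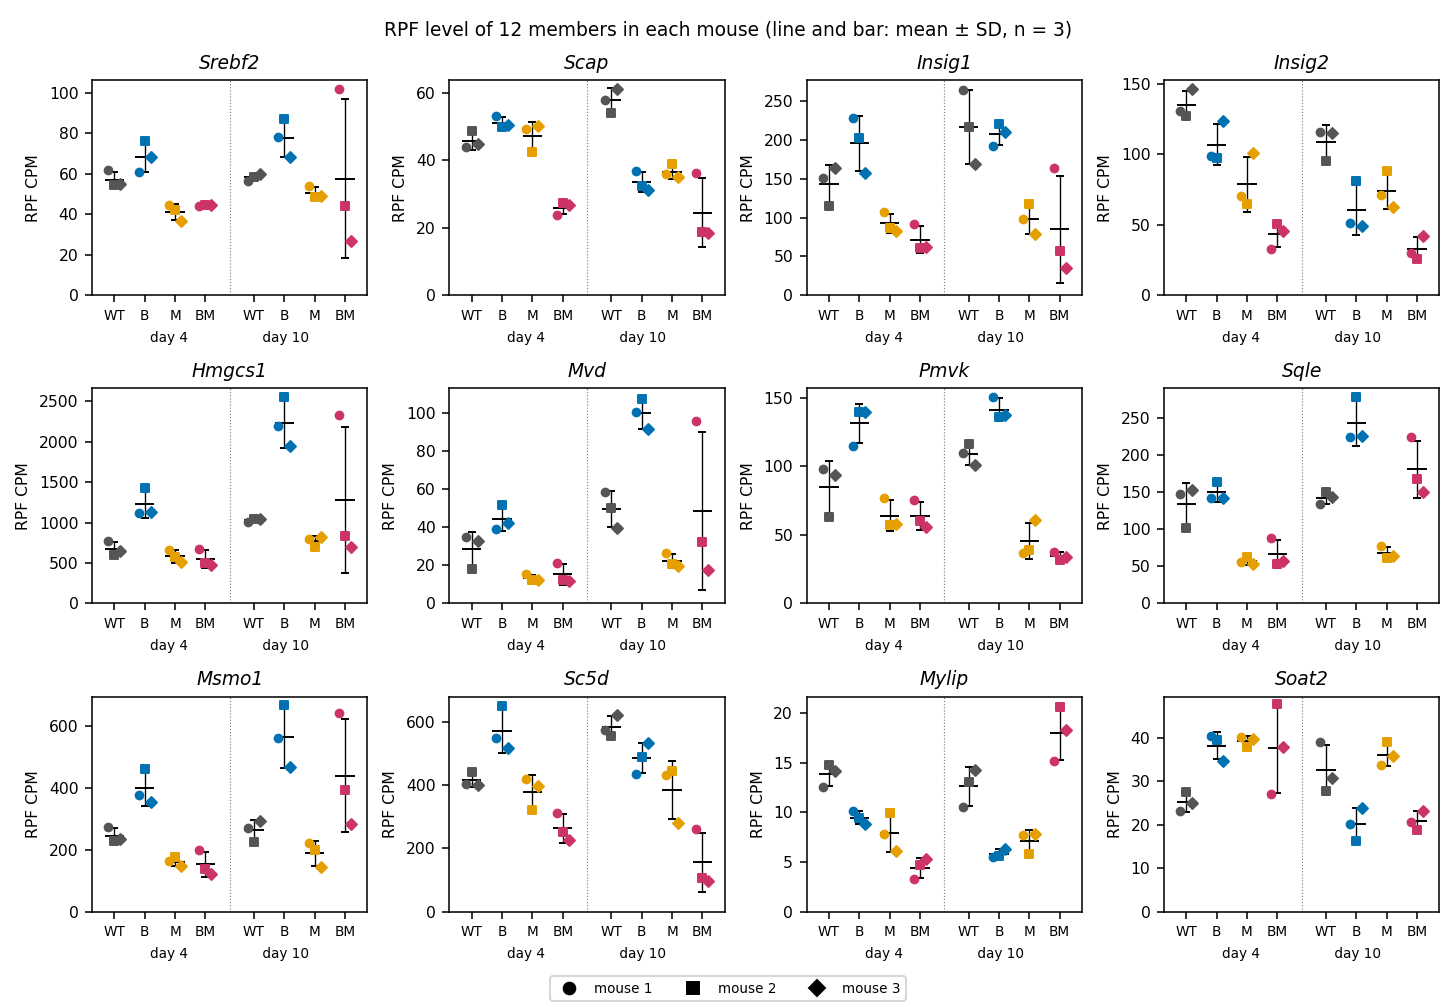
RPF CPM of 12 members in each mouse (points, shaped by mouse number) with the mean and SD of each group of 3, WT, B, M and BM at day 4 (left of the dotted line) and day 10 (right), on axes that start at 0. Hmgcs1, Mvd and Sqle are high in B and low in M at day 10, Insig2 is below WT in every group, Mylip is at 15.1 to 20.6 in BM at day 10, and mouse 1 is the highest BM mouse of day 10 in the panels with wide bars.

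Among the genes of transport, uptake and esterification, Mylip (chr13:45543215-45565501) was called in all 6 comparisons, lower in 5 of them and higher in BM at day 10. It was at 12.5, 14.8 and 14.1 RPF CPM in WT at day 4, 10.1, 9.42 and 8.85 in B, 7.81, 9.96 and 6.09 in M and 3.24, 4.65 and 5.29 in BM, all mice below WT (-0.56 ± 0.13, -0.75 ± 0.18 and -1.63 ± 0.18, adjusted p = 0.023, 0.011 and 3.7e-05). At day 10 it was at 10.5, 13.1 and 14.3 in WT, 5.48, 5.59 and 6.34 in B and 7.69, 5.79 and 7.77 in M, and at 15.1, 20.6 and 18.3 in BM, where all 3 mice lay above every WT mouse (0.50 ± 0.20, adjusted p = 0.082). The BM effect at day 10 exceeded that at day 4 by 2.14 ± 0.28 (0.00034). At day 10 BM was above B by 1.65 and above M by 1.33, both called, and without BM mouse 1 the change against WT was 0.62 ± 0.17. The rise of BM against WT at day 10 was not called when any 1 of the WT mice of that day, BM mouse 2 or BM mouse 3 was left out. The fall of Mylip in B at day 4 was not called in one fit of all 24 mice.

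Soat2 (chr15:102058797-102071904), which esterifies cholesterol in hepatocytes, rose in all 3 genotypes at day 4: WT had 23.1, 27.4 and 24.9 RPF CPM, B 40.4, 39.5 and 34.5, M 40.1, 37.8 and 39.6 and BM 27.0, 47.6 and 37.9. BM mouse 1 lay within the WT range and all other mice above it (0.59 ± 0.11, 0.68 ± 0.09 and 0.61 ± 0.18). On day 10 the WT values were 39.0, 27.8 and 30.8, B 20.1, 16.2 and 23.8, M 33.6, 39.0 and 35.7 and BM 20.6, 18.9 and 23.1. B and BM lay below every WT mouse (-0.71 ± 0.18 and -0.66 ± 0.18, adjusted p = 0.025 and 0.025), M overlapped WT (0.14 ± 0.14, not called), and the effects of the days differed in B by -1.30 ± 0.22 and in BM by -1.25 ± 0.28. Stard4, a carrier that moves sterol between membranes, fell in BM at day 4 (-0.27) and in B, M and BM at day 10 (-0.39, -0.72 and -0.82).

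Cytoplasmic RNA was called for fewer members, mostly in the same directions. In B, 12 members rose and 2 fell at day 4 (background 8.14% of genes called) and 13 rose and 3 fell at day 10 (15.6%). The day 4 count was 9 higher and 0 lower without B mouse 2, and 5 and 0 in one fit of all 24 mice. In M, 0 rose and 11 fell at day 4 (23.7%), and 0 rose and 18 fell at day 10 (15.7%). In BM, 2 rose and 15 fell at day 4 (41.9%), and 2 rose and 10 fell at day 10 (45.7%), or 3 and 15 without BM mouse 1 (57.1%). The median log2 RNA changes of the members were 0.38, -0.19 and -0.37 in B, M and BM at day 4 and 0.35, -0.56 and -0.13 at day 10, and that of BM at day 10 was -0.44 without BM mouse 1, while those of all genes tested lay between -0.01 and 0.03.

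For several single genes the values of RNA stood close to those of RPFs, and for others they did not. Hmgcs1 RNA changed by 1.01 in B at day 4 and 1.28 at day 10, Sqle RNA by -0.92 and -1.10 in M, Insig2 RNA by -1.44 and -1.52 in BM, and Sc5d RNA by -2.12 in BM at day 10, all called. Sc5d RNA changed by -2.74 without BM mouse 1. Lbr RNA changed by 0.71 in BM at day 4, also called. Mylip RNA changed by -1.45 in BM at day 4, called, and gave 0.28 at day 10, the latter not called, or 0.49 and called without BM mouse 1. Soat2 RNA, which had 13.1, 14.9 and 17.0 CPM in WT at day 4 and 19.1, 17.0 and 19.1 in B, was not called at day 4 in any genotype, while its RPFs rose in all 3. Srebf2 RNA in BM at day 10 gave 0.15 without mouse 1, not called, beside -0.73 for its RPFs. In a fit with the mouse as a block joining its RPF and RNA libraries, log2 TE of Srebf2 changed by -0.41 in M and -0.30 in BM at day 4, neither called.

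TE was tested as the interaction of genotype and library type. The main edgeR fit, which treats the RPF and RNA libraries of a mouse as separate, called 0 of the 27 members in any of the 6 comparisons (adjusted p under 0.1). DESeq2 called none either. At an unadjusted p under 0.05, 1 member passed in B, 1 in M and 2 in BM on day 4, and 0, 2 and 2 at day 10. Of all genes tested, 0.0488%, 0.971% and 2.23% were called at day 4 and 0.0564%, 0% and 0.259% at day 10. Median log2 TE changes of the members were 0.03, -0.02 and -0.12 at day 4 and -0.10, 0.02 and -0.06 at day 10. The median SE of a member's TE change was 0.19 in B at day 4 and 0.39 in BM at day 10, and a TE change of about that size was not detectable in this fit. Its SEs ran from 0.13 to 0.31 in B at day 4 and from 0.18 to 0.82 in BM at day 10. With each mouse as a block joining its 2 libraries, they ran from 0.086 to 0.26 and from 0.13 to 0.29, and the members called that way are given below.

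The widest of these TE differences was that of Scap in BM at day 10. Its RNA was at 60.2, 67.3 and 67.8 CPM in WT and 56.2, 64.9 and 57.7 in BM, overlapping, while its RPFs did not overlap. Log2 TE was -0.06, -0.32 and -0.14 in the WT mice and -0.63, -1.78 and -1.65 in the BM mice, all below WT, a change of -1.13 ± 0.31 with an adjusted p of 0.28. With each mouse as a block joining its RPF and RNA libraries, the change was -1.19 and called (adjusted p = 0.047, beside 5.21% of genes). In the fit of all 24 mice it was -1.10 and called (0.004). With BM mouse 1 left out it was -1.57 (8e-05), and with any other mouse left out it was between -0.90 and -1.19 and not called. In M and B at day 10, the Scap TE differences were -0.53 ± 0.14 and -0.31 ± 0.16, not called. The block also called lower TE of Fdft1 (-0.30 ± 0.10) and Hsd17b7 (-0.38 ± 0.11) in BM at day 4, beside 6.17% of genes.

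Without BM mouse 1 of day 10, 5 members were called in TE, beside 21.5% of all genes. Scap (-1.57 ± 0.16), Insig1 (-1.0 ± 0.33) and Srebf2 (-0.89 ± 0.28) were lower, and Ggps1 (0.88 ± 0.30) and Idi1 (0.47 ± 0.17) higher. The share of members called was no larger than that of all genes, and nothing particular to the members is read from it. Log2 TE of Srebf2 was 0.92, 0.91 and 1.17 in WT and 0.93, 0.15 and 0.08 in BM, with mouse 1 inside the WT range and the others below it. These calls rest on 2 mice of BM.

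**Figure D5:**
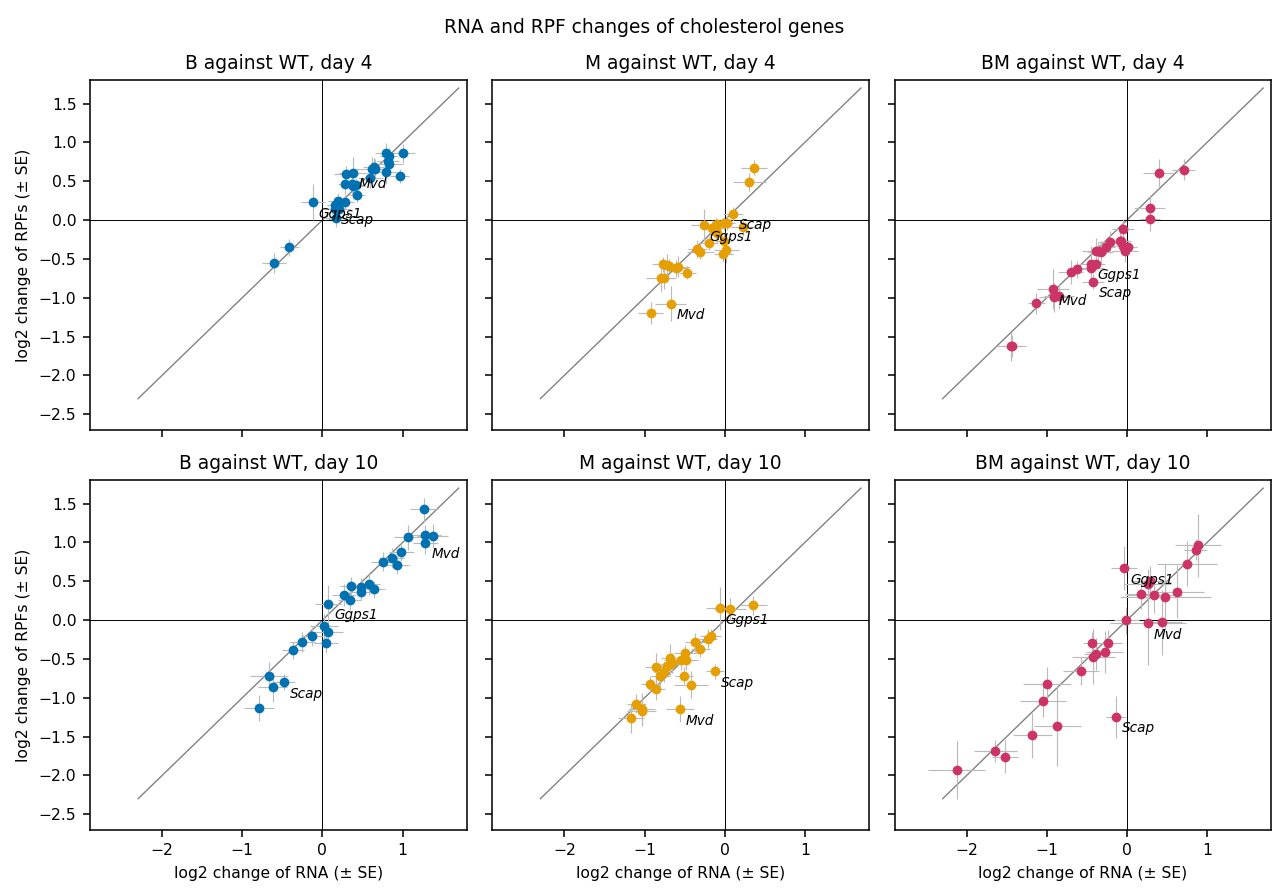
Log2 change of RPFs (y axis) against that of RNA (x axis) for 27 members in each of the 6 comparisons with WT, with SE bars and the line of equal change. Most points follow the line in all panels, and Scap in BM at day 10 lies furthest below it, at -0.13 for RNA and -1.25 for RPFs.

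BM was compared directly with each single genotype to ask which of them it followed. Against B, 25 members were lower in BM at day 4 and 1, Lbr, higher, beside 44.7% of all genes, with a median log2 difference of -1.01. Against M at day 4, 10 were lower and 2, Lbr and Hsd17b7, higher, beside 38.2%, with a median of -0.10. In one fit of all 24 mice, 1 was higher and 5 were lower than in M. Of the 20 enzymes, 2 were higher than in M and 5 lower. Among the other 13, Hmgcs1, Mvd, Fdps and Msmo1 differed from M by -0.10, 0.18, 0.08 and -0.10, none called, and from B by -1.13, -1.50, -1.05 and -1.35, all called.

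The comparison of BM with M at day 10 depended on single mice. Against M, 9 members were higher in BM and 4 lower, beside 32.7% of all genes and with a median of 0.41. The largest were Hsd17b7 (1.45 ± 0.16), Sqle (1.40 ± 0.20), Mylip (1.33 ± 0.20) and Msmo1 (1.20 ± 0.32) among the higher and Sc5d (-1.34 ± 0.41) and Insig2 (-1.21 ± 0.23) among the lower. Without BM mouse 1, 10 were higher and 9 lower, beside 59.2%, and Hmgcs1 and Mvd then differed from M by 0.02 and 0.18, neither called. Without M mouse 1 or M mouse 2 the counts were 6 higher and 2 lower, and 5 higher and 2 lower. Against B at day 10, 1, Mylip, was higher and 9 were lower, beside 36.5%. Without BM mouse 1 the count against B was 2 higher and 22 lower, beside 61.0%, and without BM mouse 2 it was 1 and 5.

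Differences between the days were tested as the change from WT at day 10 minus that at day 4. In B, 2 members were higher and 8 lower, beside 17.2% of all genes, and 6 were called in all without B mouse 1 or 3 of day 4 or without WT mouse 3 of day 10. In M, 1, Scap, was lower and 0 higher, beside 1.18%. That call was lost without WT mouse 1 of day 4 and without M mouse 1 or 3 of day 4 or M mouse 1 of day 10, while 2 were called without WT mouse 1 of day 10 and 4 without M mouse 3 of day 10. In BM, 6 were higher and 4 lower, beside 35.7%, or 6 and 11 without BM mouse 1 of day 10, beside 57.3%. WT livers themselves differed: 5 members were higher at day 10 than at day 4 and 0 lower, beside 4.44%. These were Hmgcs1 (0.63 ± 0.12), Mvd (0.79 ± 0.22), Insig1 (0.60 ± 0.17), Sc5d (0.50 ± 0.10) and Fdft1 (0.47 ± 0.10), and the count was 2, 3 and 1 without WT mouse 1, 2 or 3 of day 4 and 8 without WT mouse 2 of day 10. One fit of all 24 mice called 0 of the 27 in that comparison.

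Other genes of sterol handling were counted the same way. Of 7 genes of SREBP processing and sterol sensing, RPFs of none were called in B at either day, 1 rose and 0 fell in M at day 4, 1 rose and 2 fell at day 10, 3 rose and 2 fell in BM at day 4 and 2 rose and 3 fell at day 10. Mbtps2, a protease that releases SREBP in the Golgi, rose in M (0.53 and 0.77) and BM (0.91 and 1.68). Erlin1, which acts in sterol-dependent degradation at the endoplasmic reticulum, fell in BM at day 10 (-1.42). Of 14 genes of efflux, storage and handling, 13 were tested: 1 rose and 0 fell in B at day 4, 1 rose and 2 fell at day 10, 2 rose and 4 fell in M at day 4, 0 rose and 1 fell at day 10, 1 rose and 7 fell in BM at day 4 and 4 rose and 6 fell at day 10. Abca1, the exporter that loads nascent high-density lipoprotein, fell in BM (-0.44 and -0.63). In the isoprenoid branch of 10 genes, Pdss1, which makes the side chain of coenzyme Q, rose in M (0.90 and 1.49) and BM (1.49 and 2.59), and in B at day 10 (0.83). Over that list the calls were 0 higher and 1 lower in B, 3 higher and 2 lower in M and 3 higher and 1 lower in BM at day 4, and 1 higher and 0 lower, 2 higher and 1 lower and 4 higher and 2 lower at day 10. The shares of all genes called, 12.5%, 33.3% and 50.9% in B, M and BM at day 4 and 25.2%, 19.4% and 46.8% at day 10, stand beside all these counts. Without BM mouse 1 the counts in BM at day 10 were 2 higher and 4 lower for SREBP processing, 7 higher and 6 lower for efflux, storage and handling and 4 higher and 3 lower for the isoprenoid branch, beside 66.3%, and nothing particular to these lists is read from them.

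Some genes that follow the nutritional state differed between mouse 1 and the other BM mice of day 10, and others did not. Igfbp1, a secreted protein induced by fasting, was at 318, 3425 and 4604 RPF CPM in BM mice 1, 2 and 3, and at 32.6, 175 and 65.3 in WT. Pck1, the gluconeogenic kinase, was at 649, 3548 and 3922 in BM and 1124, 1224 and 1241 in WT, and Lpin1 at 105, 807 and 1326 and 86.2, 83.5 and 61.6. BM mouse 1, with the high enzymes, thus held the low values of these 3. Scd1, a desaturase of the fed liver, was at 262, 323 and 214 in BM, where mouse 1 lay within the range of the others. Fasn, fatty acid synthase, was at 1950.5, 390.2 and 344 in the 3 BM mice and 3816, 2630.0 and 2088 in WT. Of the fasted-state list (11 genes, of which 10 or 11 were tested), 4 rose and 2 fell in BM at day 10, and of the 8 fed-state genes 0 rose and 7 fell. Without mouse 1 the counts were 6 higher and 3 lower and 0 higher and 8 lower, beside 66.3% of all genes. In the other comparisons the fasted-state list gave 3 higher and 4 lower in B, 1 higher and 2 lower in M and 4 higher and 5 lower in BM at day 4, and 4 higher and 2 lower in B and 0 higher and 4 lower in M at day 10. The fed-state list gave 4 higher and 0 lower, 1 higher and 2 lower and 0 higher and 4 lower at day 4, and 0 higher and 3 lower and 0 higher and 5 lower at day 10. These counts stand beside 12.5%, 33.3% and 50.9% of all genes at day 4 and 25.2%, 19.4% and 46.8% at day 10. The labels say that food was freely available and give no time of last feeding or of harvest. The part of feeding in the values of the members was not tested.

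Markers of other cells and of growth moved with the genotypes too. The summed RPF level of the 6 hepatocyte markers was 59062 to 70671 CPM in B and 47378 to 60319 in M at day 4, and 36500.4 to 39998 and 42256 to 44352 at day 10. Of these 6, 2 fell in B, 4 in M and 6 in BM on day 4, and 4, 3 and 3 at day 10, where 1 also rose in BM, beside 12.5%, 33.3% and 50.9% of all genes called at day 4 and 25.2%, 19.4% and 46.8% at day 10. With BM mouse 1 left out, 2 rose and 4 fell there, beside 66.3%. The sum was thus lower than in WT in B at day 10 too, where enzymes rose, and it overlapped WT in B at day 4. Kupffer cell markers (6 genes) summed to 669 to 778 in WT, 437 to 1097 in M and 389 to 411 in BM at day 4, with all 6 lower in BM, and to 541 to 745 in WT and 833 to 894 in BM at day 10. Endothelial markers (5) summed to 619 to 699 in WT and 496 to 557 in BM at day 4, stellate markers (5) to 636 to 701 and 414 to 507, cholangiocyte markers (5) to 85.7 to 133 and 36.1 to 53.9 and blood markers (3) to 355 to 372 and 168 to 237, and none of these lists held a marker at 0 in all mice of a group. At day 10 the blood markers were at 358 to 426 in WT, 523 to 788 in B and 205, 598 and 781 in the 3 BM mice, with mouse 1 below WT and the others above it. Stellate markers were at 689 to 794 in WT, 382 to 537 in B and 409, 604 and 575 in BM, below WT in both. In M the stellate, endothelial and blood sums were 521 to 601, 469 to 571 and 171 to 282 at day 4 and 514 to 597, 448 to 506 and 197 to 305 at day 10, below every WT mouse of the day. Endothelial markers were at 609 to 732 in WT and 505, 623 and 645 in BM, where mouse 1 was the lowest of the 3. The 6 cell cycle genes, among them Mki67, summed to 56.6 to 63.2 in WT, 75.3 to 95.6 in B, 201 to 229.6 in M and 489 to 825 in BM at day 4 and to 63.7 to 89.7, 193 to 369.9, 119 to 329 and 130.1 to 142 at day 10. The part of cell makeup and of growth in the values of the members was not tested.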

How the data were processed

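Livers of 24 mice were profiled as ribosome-protected fragments and cytoplasmic RNA. Per the study's methods and the labels, the authors trimmed reads with cutadapt 1.18, removed duplicate molecules by their unique molecular identifiers, and aligned to GENCODE vM27 (GRCm39). For RPFs the authors deposited raw counts per coding sequence, with the first and last codons left out (90 bases in all), on the most abundant transcript of each gene, aligned with BBmap. For RNA they deposited RSEM 1.3.3 expected counts per isoform after Bowtie2 2.3.5.1, which were summed per gene and rounded to whole numbers here. The deposited TPM columns entered no test. SAMtools 1.9 and R 4.3.1 are also named in the labels.
From these counts, levels (CPM) and tests were computed with edgeR 4.0.16 in R 4.3.3, with TMM scaling within each library type, filterByExpr (minimum count 10, minimum total 15) and the quasi-likelihood test on the groups compared, adjusted over all genes by Benjamini-Hochberg, and called at an adjusted p under 0.1. TE was the interaction of group and library type. The 28 members and the other lists were chosen with earlier results of these data known. The rule for values of every mouse took the 10 members called in the most of the 6 RPF comparisons with WT, and the regulators, and further members named in the text were picked after their values were seen. Samples were grouped by the genotype, time and number in the labels, which mark separate mice. RPF and RNA libraries of the same number came from the same lysate, and their deviations from the group means correlated above 0.1 in 24 of 24 mice (0.197 to 0.62), so TE was also fitted with the mouse as a block. The alternatives were DESeq2 1.42.0, its size factors, no filter, one fit of all 24 mice, replicate blocks, RNA of the isoform used for RPFs, and each mouse left out. Depth was 9742197 to 14380713 counts for RPFs and 3254141 to 6540116 for RNA, and no libraries of the same group and type were alike within counting noise. The tests were tried on simulated counts first. Some genes of the pathway are not reported here.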

Additional observations from a re-analysis of the deposited data

Results flagged for a closer look

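The effects of a genotype on RPFs differed between the days for several members, tested as the day 10 change from WT minus the day 4 change (edgeR, adjusted p under 0.1). Each genotype shares its WT mice with the others, so the lists are given side by side and not compared. Of all genes tested, 17.2% were called in B, 1.18% in M and 35.7% in BM, and the 10 of 27 members called in BM stood close to that share. In B, most of the members called had lower effects at day 10 than at day 4. Soat2 differed by -1.30, Scap by -0.94, Sc5d by -0.73, Acat2, Stard4 and Tm7sf2 each by -0.62, Mylip by -0.57 and Ebp by -0.39. Mvk and Sqle had higher effects, by 0.77 and 0.62. In M, Scap was the member called, with -0.73, and the call was lost in one fit of all 24 mice and when WT mouse 1 of day 4, M mouse 1 or 3 of day 4 or M mouse 1 of day 10 was left out.

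In BM, Mylip differed by 2.14, with changes from WT of -1.63 and 0.50 at days 4 and 10. Enzymes that differed in the same direction were Msmo1, by 1.41, Sqle, by 1.34, Hsd17b7, by 1.27 and Idi1, by 0.89. Ggps1, with few RPFs, differed by 1.24. Pmvk (-1.28), Sc5d (-1.28), Soat2 (-1.25) and Lbr (-0.64) had lower effects at day 10 than at day 4. With BM mouse 1 of day 10 left out, Sc5d differed by -1.91, and Scap, Insig1, Acat2, Cyp51, Tm7sf2, Nsdhl and Stard4 were also called with lower effects, beside 57.3% of all genes. Lbr had risen at day 4 (0.65) and was not called at day 10 (-0.004). Groups of 3 mice are too small for a test of single mice that stand apart.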

How the results depend on the processing

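Of the members called with all mice, none changed direction in any of 3272 alternative values, of which 2887 stayed on the same side of the threshold and 385 lost their call. Values not called with all mice are left out of this count: without BM mouse 1, RPFs of Hmgcs1 and Fdft1 in BM at day 10 turned from higher to lower, and Srebf2, Hmgcs1, Mvd, Fdps, Cyp51, Nsdhl and Dhcr7 gained calls. Most of the lost calls, 281 of 1842 values, came from leaving out 1 mouse. DESeq2 size factors moved none of 286, the lack of a filter 6, DESeq2 14, the replicate block 16, and one fit of all 24 mice 68. The count of members called was within 1.5 times its main value under DESeq2 size factors, no filter and isoform RNA in every comparison. DESeq2 gave 2 in place of 1 for the M difference between the days and 8 in place of 5 for WT day 10 against day 4.

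One fit of all 24 mice, which shares one spread among groups, called 9 in place of 19 for RPFs of B at day 4, 5 in place of 14 for its RNA, 11 in place of 17 for RNA of BM at day 4, 6 in place of 12 for BM against M at day 4, 20 in place of 13 for BM against M at day 10, 19 in place of 10 for BM against B at day 10, 4 in place of 10 for the B difference between the days, 0 in place of 1 for that of M, 0 in place of 5 for WT day 10 against day 4, and 1 in place of 0 for TE of BM at day 10. The cause was not tested.

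With 1 mouse left out, the members called ranged from 13 to 20 for RPFs of M at day 10 (lowest without WT mouse 3), from 9 to 20 for RPFs of BM at day 10 (highest without BM mouse 1), from 9 to 15 for RNA of B at day 4 (lowest without B mouse 2) and from 0 to 5 for TE of BM at day 10 (highest without BM mouse 1). They ranged from 7 to 19 for BM against M and from 6 to 24 for BM against B at day 10, both highest without BM mouse 1 and lowest without M mouse 2 and BM mouse 2. The ranges were 6 to 12 for the B difference between the days, 0 to 4 for that of M, 9 to 17 for that of BM and 1 to 8 for WT day 10 against day 4.

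No pairing of mice across genotypes by number was seen: same-number mice correlated between -0.188 and 0.237. In 0 of 24 group pairs of the same day, with RPFs and RNA counted apart, were all such correlations over 0.1. For RPFs of B and M at day 10 they were 0.14, 0.089 and 0.202, and the check cannot exclude a weak pairing. The replicate block for RPFs and RNA left every count of members called within 1.5 times its main value. For TE, where it joins the libraries of a mouse, it called 2 members in BM at day 4 and 1 in BM at day 10, in place of 0.

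With 3 mice a group, 1 mouse can move a count of calls, as the ranges above show. All genotypes of a day share their 3 WT mice. RNA libraries held fewer counts than RPF libraries, and both enter each TE value. TMM scaling sets levels relative to the other genes of a library, so a change of all RNA per liver would not be seen. The labels used here give no harvest time, feeding state or cell makeup per mouse.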

Other observations

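Scd1 and Acly, genes of fatty acid synthesis that are active in the fed liver, were lower in all BM mice of day 10. The stearoyl-CoA desaturase Scd1 was at 262, 323 and 214 RPF CPM in BM and 3945, 3803 and 4506 in WT (-3.95 ± 0.24 on the log2 scale, adjusted p = 0.0001). Acly, which makes the acetyl-CoA that both pathways use, was at 382, 143 and 166 and 1008, 1114 and 735 (-2.06 ± 0.39, 0.0058). Mouse 1 of BM was the highest of its group for Acly and within the range of the others for Scd1, and all 3 mice lay below every WT mouse for both genes. These genes were named after their values were seen.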
